A study of Mus musculus with 2 samples.

Results

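The chemokine receptor genes Ccr2, Ccr6, Ccr7, Ccr9, Cxcr3, Cxcr4, Cxcr6 and Cx3cr1 were followed through γδ T cells of mouse liver and thymus, 8 genes of the 27998 in the count matrices, found by their gene symbols. All 8 were detected in both organs. The cells came from untreated wild-type C57BL/6J mice, 8 weeks of age, and were sorted as CD3e+ TCRγδ+, the thymocytes after bead depletion of CD4+ and CD8+ cells. Each organ gave 1 droplet library with transcripts counted as unique molecular identifiers (UMIs) at their 3′ ends. The study was made to learn where the different kinds of γδ T cell come from, and how the liver holds immature as well as mature ones. Because there was 1 library per tissue, no difference here has a replicate check and no test was run: the intervals given are 95% intervals for counting error only.

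Chemokine receptors are G protein-coupled receptors that let a cell move toward its ligand. In T cell biology, Ccr9 responds to Ccl25 of the thymus and small intestine, Ccr7 guides cells toward Ccl19 and Ccl21 in lymphoid organs, and Cxcr4 is the receptor for Cxcl12. Cxcr3 is bound by the interferon-induced ligands Cxcl9 and Cxcl10, Cxcr6 by Cxcl16, which is made in the liver sinusoids, Ccr2 by Ccl2, Ccr6 by Ccl20, and Cx3cr1 by Cx3cl1.

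After keeping cells with 800 to 4000 detected genes and at most 6% mitochondrial UMIs, 8075 of 8658 liver barcodes and 4351 of 4541 thymus barcodes remained, with medians of 2741 and 3271 UMIs. The libraries shared 60 barcode sequences, 56 of them among kept cells. Both libraries were clustered together with chemokine receptor genes left out of the variable genes, so that the members did not decide the 12 clusters. In the thymus, 2 clusters were immature thymocyte-like, 1267 cells led by Slc35d1 and Tnfsf11 and 1187 cells led by Igfbp4, Tox2 and Cpa3. A further 1004 thymic cells formed an unnamed cluster led by Cd200, S1pr1 and hemoglobin genes, and 535 were cycling-like. A cluster called precursor-like for Ly6c2, Dapl1 and Nsg2 held 1059 liver and 177 thymic cells, and IL-17 producer-like cells were 792 and 164. The thymic cells of the precursor-like cluster had 1162 CPM (counts per 1000000 UMIs) of summed precursor markers, 2939 CPM of type 1 effector and 1370 CPM of cytotoxic NK markers, against 1981, 3254 and 1584 CPM in its liver cells, while the other thymic groups of at least 20 cells had at most 749 and 64.4 CPM of the latter 2 lists. When the thymus was clustered alone, 163 of the 177 (92.1%) fell into an unnamed cluster led by Ly6c2, Xcl1, Ccl5 and Gzmb, whose highest marker scores were those of the cytotoxic NK and type 1 effector lists. The name therefore does not describe the thymic cells by their own markers, and comparing the organs in this cluster may not be comparing 1 cell type. In the same thymus-alone clustering, 162 of the 164 IL-17 producer-like thymocytes (98.8%) fell into a cluster of 172 cells named myeloid-like. Its marker scores were 3.76 for the myeloid and 3.43 for the IL-17 producer list, and Il17a, Cd74 and H2-Aa were among its leading genes. Ccr9 was at 208 CPM (172 to 251) in the 172 cells and 146 CPM (113 to 184) in the 162. The other liver cells were 2857 Cd28 Socs2-like, 2750 cytotoxic NK-like, 279 terminal effector-like, 105 myeloid-like and 71 interferon response-like cells, 80 cells of an unnamed cluster led by Ccl1 and Crtam, 43 cells in the Cd200 S1pr1 cluster and 34 cycling-like cells, the last with 5647 CPM of summed myeloid and 1150 CPM of B cell markers. Summed T cell markers (Cd3d, Cd3e, Cd3g, Cd247) were 909 CPM in the myeloid-like cells and 2696 or more in every other group of at least 20 cells, while hepatocyte markers summed to at most 17 CPM.

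Ccr9, Cxcr6 and Ccr2 lie on 1 stretch of chromosome 9, and Ccr9 and Cxcr6 were the members most unlike between the organs there. In the GENCODE annotation of GRCm38, Ccr9 spans chr9:123678439-123784330 on the plus strand, and Cxcr6 starts 22144 bases beyond its end, at chr9:123806475-123811760 on the same strand. Ccr2 follows 290189 bases further on, at chr9:124101950-124113557, also on the plus strand. The sequences just before the RefSeq starts of Ccr9 and Cxcr6 are shown because these near neighbours had opposite patterns, and that of Cxcr3 (chrX:101731535-101734269, minus strand) because it had the largest ratio of the 8 between liver and thymus. They are from GRCm38.p6, up to 250 bases before the start with bases in any annotated exon left out, 5′ to 3′ on the gene's strand.
Ccr9, chr9:123766961-123767168, plus strand: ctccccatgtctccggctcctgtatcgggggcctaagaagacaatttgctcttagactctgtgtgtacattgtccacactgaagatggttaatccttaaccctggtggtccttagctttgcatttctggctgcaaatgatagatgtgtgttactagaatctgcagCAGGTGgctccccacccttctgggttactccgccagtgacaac
Cxcr6, chr9:123806227-123806474, plus strand: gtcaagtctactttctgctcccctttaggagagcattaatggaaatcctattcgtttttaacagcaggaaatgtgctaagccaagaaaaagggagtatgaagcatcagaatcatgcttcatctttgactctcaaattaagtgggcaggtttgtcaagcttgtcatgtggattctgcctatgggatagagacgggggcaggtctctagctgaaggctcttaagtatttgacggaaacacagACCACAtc
Cxcr3, chrX:101734270-101734397, minus strand: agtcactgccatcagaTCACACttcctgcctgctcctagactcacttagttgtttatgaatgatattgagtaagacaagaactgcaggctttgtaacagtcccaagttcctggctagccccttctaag
Capitals mark matches, on either strand, to ACCACA (a RUNX motif), CAGGTG (an E box) or TCACAC (a T-box motif), letters that were chosen after the sequences had been seen. Of 32851 windows of 250 bases before RefSeq starts in the mouse, 14.0% held the RUNX letters, 17.2% the E box and 12.3% the T-box letters. Among the 7 members with an entry, with 8 windows in all, the Ccr9 window held the E box once, the Cxcr6 window the RUNX letters once, the Cxcr3 window each of the 3 once (only the T-box match outside exons), and the Cx3cr1 window the RUNX letters once. The windows of Ccr2, Ccr6 and Cxcr4 held none of them. A match is a string of letters, and no binding was measured.

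Over all kept cells, Cxcr3, Cxcr6, Ccr2, Cxcr4 and Ccr6 were more than 2-fold higher in the liver library, and Ccr9, Cx3cr1 and Ccr7 more than 2-fold lower. Of 10869 genes with at least 50 UMIs over both libraries, 12.1% were past 2-fold higher in liver and 16.9% past 2-fold lower, whereas 5 and 3 of the 8 members were. The median log2 ratio of liver over thymus was -0.22 over all those genes and 1.44 over the members.

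Cxcr3, the receptor of type 1 effector cells, stood at 194 CPM in liver and 2.34 CPM in thymus, a log2 ratio of 6.37 (5.92 to 6.86). Cxcr6, a receptor of tissue-resident lymphocytes, stood at 494 and 39.1 CPM, with a log2 ratio of 3.66 (3.54 to 3.77). Ccr2, the receptor of monocytes and of IL-17-producing γδ T cells, stood at 91.4 and 24.8 CPM, at 1.88 (1.73 to 2.04). These 3 genes had intervals well away from 2-fold. Cxcr4 stood at 32.9 and 9.90 CPM, with a log2 ratio of 1.73 (1.49 to 1.98). Ccr6, a receptor of IL-17 producers, was at 10.1 and 4.57 CPM, with a ratio of 1.14 (0.76 to 1.52), an interval that reaches below 2-fold. With the mean of the cells' own CPM in place of summed UMIs its ratio was 0.72.

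In the other direction, Ccr9 stood at 24.7 CPM in liver and 799 CPM in thymus, a log2 ratio of -5.01 (-5.13 to -4.90). Ccr7 stood at 31.1 and 69.1 CPM, at -1.15 (-1.29 to -1.02). Cx3cr1, a receptor of cytotoxic effector cells and of monocytes, stood at 7.32 and 17.6 CPM, at -1.26 (-1.54 to -0.99). Of the liver Cx3cr1 UMIs, 53 of 177 were in the 105 myeloid-like cells, and without those cells the ratio was -1.73. Ccr9 was thus the member with the largest thymic excess, and Ccr7 went to the other side of 2-fold, at -0.94, when cells with 500 or more genes were kept. In the GENCODE annotation Ccr9 overlaps Lztfl1 on the opposite strand, which was at 36.0 CPM in liver and 277 CPM in thymus, and 2 gene models on its own strand. The Cx3cr1 model overlaps 9 other genes, 3 of them on its own strand (Gorasp1, Csrnp1 and Xirp1). Whether counting used strand is not given in the sources used here, so that reads of such partners cannot be told apart, and the Ccr9 and Cx3cr1 values are uncertain to that extent.

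**Figure D1:**
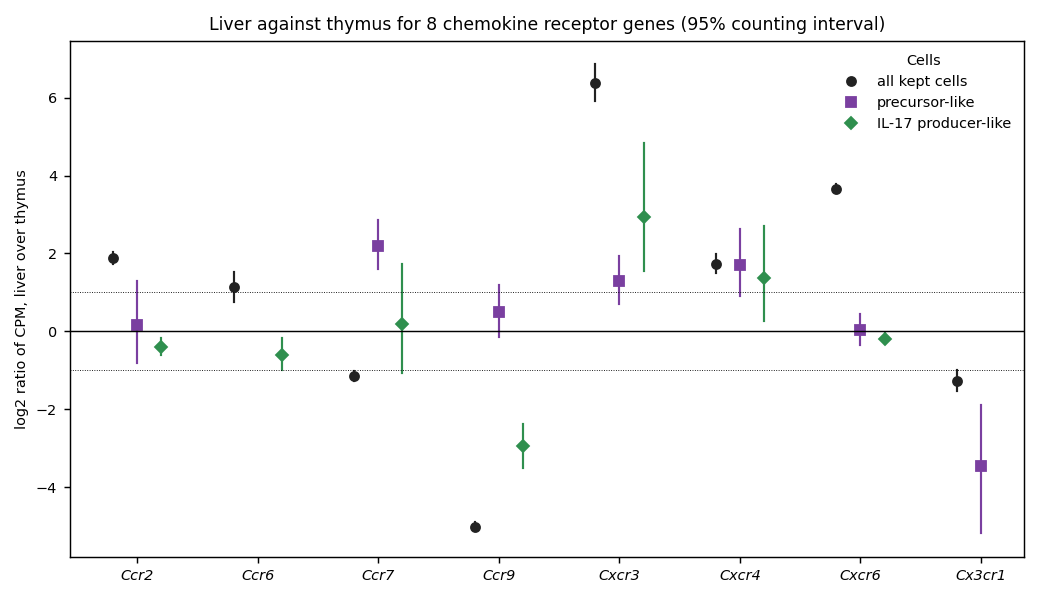
Log2 ratio of liver over thymus CPM for the members over all kept cells, within the precursor-like cluster and within the IL-17 producer-like cluster, with 95% counting intervals as bars and 2-fold marked by dotted lines; members without a UMI in 1 of the parts are not drawn, and the Cx3cr1 point of the precursor-like cluster rests on 6 and 11 UMIs. Cxcr3 was above 0 in all 3 settings, whereas Ccr9 was at -5.01 over all cells, 0.49 within the precursor-like cluster and -2.94 within IL-17 producer-like cells.

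The levels over the thymic clusters placed Ccr9 in the immature cells and showed it lower in each of the other thymic groups. Ccr9 was at 1243 CPM (1206 to 1281) in the Slc35d1 cluster and 1172 CPM (1143 to 1202) in the Igfbp4 Cpa3 cluster. It was at 508 CPM (484 to 533) in the Cd200 S1pr1 cluster, 372 CPM (354 to 392) in cycling-like cells, 144 CPM (112 to 182) in IL-17 producer-like thymocytes and 38.5 CPM (24.1 to 58.3) in the thymic cells of the precursor-like cluster. All of these intervals were separate from their neighbours' in the order. From the Slc35d1 cluster to the Cd200 S1pr1 cluster the level was 2.45-fold lower (2.31 to 2.59) and to IL-17 producer-like thymocytes 8.63-fold lower (6.80 to 11.1).

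The share of cells with a Ccr9 UMI is best compared at 1 depth, since cycling-like thymocytes had a median of 7066 UMIs and the Slc35d1 cluster 2643. With every cell thinned to 1500 UMIs, 81.2% of cells of the Slc35d1 cluster had a Ccr9 UMI, 80.8% of the Igfbp4 Cpa3 cluster, 46.8% of the Cd200 S1pr1 cluster and 39.1% of cycling-like cells. Without thinning the shares were 93.2%, 97.8%, 62.7% and 72.5%, in another order. The thinned order is also that of the CPM. Liver myeloid-like cells, which should lack the gene, had no Ccr9 UMI in 105 cells of median depth 3069, which by the limit of 3 counts allows up to 2.86% of cells with a UMI. Ccr9 was at 24.7 CPM in the liver library and 799 CPM in thymus, so this limit gives no background for the thymic shares. The thymus had only 3 myeloid-like cells.

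Ccr9 also marked some liver cells. It was at 54.1 CPM (46.6 to 62.5) in liver precursor-like cells, 25.6 CPM (22.3 to 29.3) in Cd28 Socs2-like cells, 18.8 CPM (13.8 to 24.99) in IL-17 producer-like cells and 6.36 CPM (4.70 to 8.40) in cytotoxic NK-like cells. Hence 7.28% of thinned liver precursor-like cells had a Ccr9 UMI (10.9% unthinned) against 0.909% of cytotoxic NK-like cells (1.6% unthinned), at medians of 2982 and 2690.5 UMIs. In addition, 43 liver cells fell into the Cd200 S1pr1 cluster, in which almost all other cells were thymic, and there Ccr9 was at 250 CPM (172 to 351), in 11 of 41 thinned cells. The liver and thymic cells of the precursor-like cluster had overlapping Ccr9 intervals.

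Ccr7 was highest in the thymic Cd200 S1pr1 cluster, at 199 CPM (184 to 215), and in liver precursor-like cells, at 183 CPM (169 to 198), levels whose ratio was 1.09 (0.97 to 1.22). Next came 2 small liver groups, the 34 cycling-like cells with their myeloid and B cell markers, at 132 CPM (86.4 to 194), and the 43 liver cells of the Cd200 S1pr1 cluster, at 90.9 CPM (46.9 to 159). In the thymus it was at 47.7 CPM (41.9 to 54.1) in the Igfbp4 Cpa3 cluster, 40.2 CPM (25.5 to 60.4) in the precursor-like cluster, 40.2 CPM (34.2 to 46.8) in cycling-like cells and 27.4 CPM (22.1 to 33.4) in the Slc35d1 cluster. Of these the interval of the precursor-like cluster overlaps the other 3, and that of the Slc35d1 cluster is below those of the Igfbp4 Cpa3 and cycling-like cells. In the liver it was low in Cd28 Socs2-like (2.29 CPM), cytotoxic NK-like (1.82 CPM) and terminal effector-like cells (1.19 CPM), and higher than these in IL-17 producer-like cells, at 14.4 CPM (10.1 to 19.9). In thinned cells, 22.2% of the Cd200 S1pr1 cluster (34.4% unthinned) and 17.7% of liver precursor-like cells (25.02% unthinned) had a Ccr7 UMI, against 0.255% of cytotoxic NK-like cells (0.509% unthinned).

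Hemoglobin moved with the Cd200 S1pr1 cluster. Summed erythroid markers were at 304 CPM there and at 31.5 to 55.9 CPM in the other thymic groups. In the clustering of the thymus alone, 685 of these 1004 cells (68.2%) fell into a cluster led by hemoglobin genes, which also took 74 and 72 cells of the immature clusters, and 276 (27.5%) into one led by Tnfrsf9. The 685 cells had 460 CPM of erythroid markers, 234 CPM of Ccr7 (213 to 256) and 701 CPM of Ccr9 (665 to 739). The 276 cells had 38.9 CPM of erythroid markers, 132 CPM of Ccr7 (111 to 156) and 125 CPM of Ccr9 (105 to 149). Both parts were thus above the immature clusters in Ccr7, also the part without raised erythroid markers, whereas Ccr9 was 1 of the genes in which they differed.

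**Figure D2:**
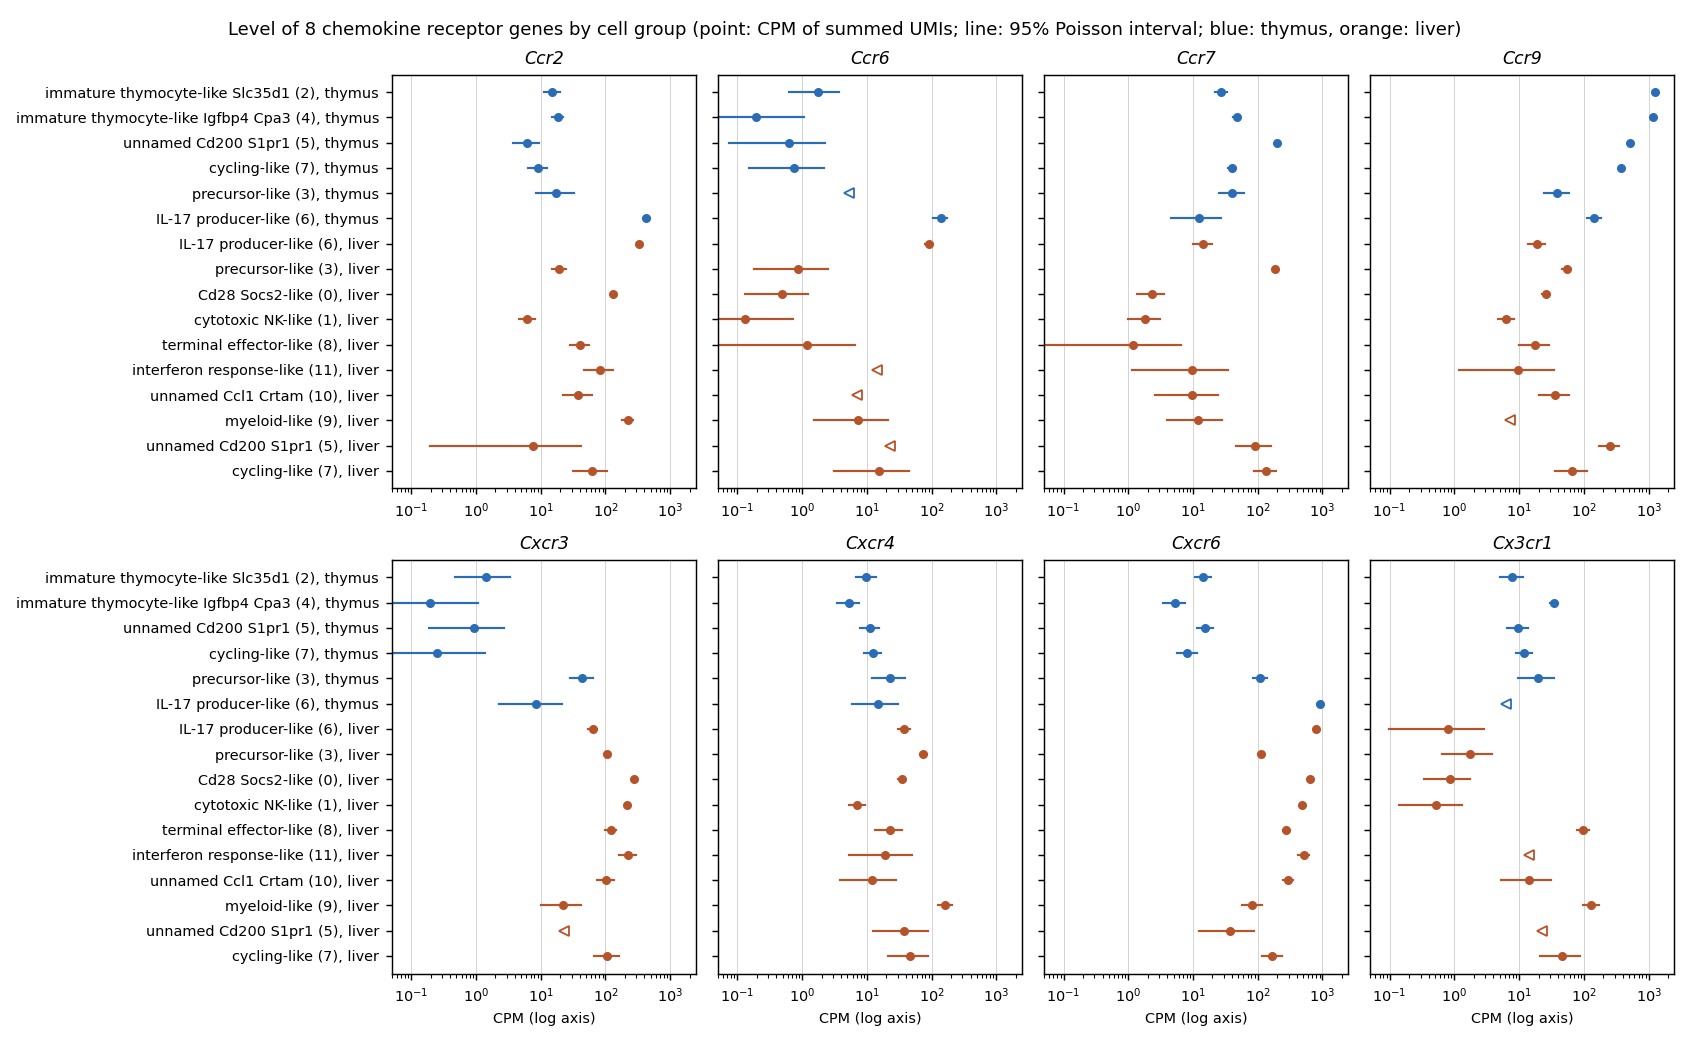
Level of each of the 8 receptor genes (CPM, log axis) in every cluster and library with at least 20 cells, as points with 95% Poisson intervals, blue for thymus and orange for liver; open triangles mark groups without a UMI, drawn at the level of 3 counts. Ccr9 was highest in thymic immature cells (1243 CPM), Cxcr3 in liver Cd28 Socs2-like cells (276 CPM), and Ccr2, Ccr6 and Cxcr6 in thymic IL-17 producer-like cells (430, 138 and 900 CPM).

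The receptors of IL-17 producers had nearly the same profile in both organs. In thymic IL-17 producer-like cells Cxcr6 was at 900 CPM (817 to 989), Ccr2 at 430 CPM (373 to 493) and Ccr6 at 138 CPM (107 to 175). In the liver cells of that cluster they were at 792 CPM (758 to 828), 328 CPM (306 to 351) and 91.2 CPM (79.7 to 104). All 3 were slightly lower in the liver part, with log2 ratios of -0.18, -0.39 and -0.60 and intervals that do not reach 0. Ccr6 was the most restricted member: outside this cluster it had at most 6 UMIs in any group. Ccr2 was not so restricted, with 221 CPM (178 to 271) in myeloid-like and 133 CPM (125 to 141) in Cd28 Socs2-like cells.

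Within this cluster Cxcr3, Cxcr4 and Ccr9 differed more between the organs. Over its 5229 genes with at least 50 UMIs, 6.46% were past 2-fold higher in liver and 2.16% past 2-fold lower, as were 2 and 1 of the 6 members tested. Cxcr3 was at 64.0 CPM in liver and 8.35 CPM in thymus (log2 ratio 2.94, 1.55 to 4.83, from 160 and 4 UMIs). Cxcr4 was at 37.6 and 14.6 CPM (1.36, 0.26 to 2.72). Ccr9 was at 18.8 and 144 CPM (-2.94, -3.50 to -2.38). Summed myeloid markers were at 173 CPM in the liver part and 45.9 CPM in the thymic part, type 1 effector markers at 1171 and 167 CPM, and cytotoxic NK markers at 1084 and 23.0 CPM, and their part in the Cxcr3 difference was not tested. Over the whole libraries Ccr9 (24.7 and 799 CPM), Cxcr3 (194 and 2.34 CPM) and Cxcr4 (32.9 and 9.90 CPM) differed in these same directions. In the same libraries, the thymic cells of the precursor-like cluster had 38.5 CPM of Ccr9, below the 144 CPM (112 to 182) of thymic IL-17 producer-like cells. Liver myeloid-like cells had 21.8 CPM of Cxcr3 (9.98 to 41.4) and liver cytotoxic NK-like cells 7.13 CPM of Cxcr4 (5.37 to 9.29), below the 64.0 (54.5 to 74.7) and 37.6 CPM (30.4 to 46.0) of liver IL-17 producer-like cells. Other groups of the same libraries were above the IL-17 producer-like cells. The thymic Slc35d1 cluster had 1243 CPM of Ccr9, liver Cd28 Socs2-like cells 276 CPM of Cxcr3 and liver myeloid-like cells 160 CPM of Cxcr4. The part of free RNA in the differences between the organs was not tested.

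In the precursor-like cluster Cxcr3 and Cxcr4 were again past 2-fold higher in liver, and Ccr7 was too. Ccr7 was at 183 CPM in liver and 40.2 CPM in thymus (log2 ratio 2.19, 1.59 to 2.86), Cxcr4 at 74.2 and 22.7 CPM (1.71, 0.91 to 2.63) and Cxcr3 at 107 and 43.7 CPM (1.29, 0.70 to 1.93). Ccr9, Ccr2 and Cxcr6 had intervals that include 0, at 0.49, 0.16 and 0.03. Of 5689 genes tested within this cluster, 5.27% were past 2-fold higher in liver and 3.9% past 2-fold lower, as were 3 and 0 of the 6 members tested. Cx3cr1 had 6 UMIs in liver and 11 in thymus, too few to be counted there. The precursor markers, at 1981 CPM in liver and 1162 CPM in thymus, moved with these differences, and their part was not tested.

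Cxcr6 and Cxcr3 were spread over the mature liver cells. Cxcr6 was at 648 CPM (630 to 665) in Cd28 Socs2-like, 475 CPM (459 to 490) in cytotoxic NK-like, 278 CPM (243 to 316) in terminal effector-like and 113 CPM (102 to 125) in precursor-like liver cells. Cxcr3 was at 276 CPM (265 to 287), 215 CPM (204 to 225), 121 CPM (98.7 to 147) and 107 CPM (96.1 to 118) in the same clusters. Over these 4 both had the same order, though the last 2 Cxcr3 intervals overlap. Liver IL-17 producer-like cells broke it, with Cxcr6 above all 4 (792 CPM) and Cxcr3 below all 4 (64.0 CPM). Among thymic groups of at least 20 cells, the precursor-like cluster was the only one besides IL-17 producer-like cells with Cxcr6 above 20 CPM, at 110 CPM (84.7 to 141). The immature and cycling-like thymocytes and the Cd200 S1pr1 cluster had 5.22 to 15.5 CPM of Cxcr6 and at most 1.44 CPM of Cxcr3. In thinned cells, 58.2% of Cd28 Socs2-like cells had a Cxcr6 UMI (76.3% unthinned) and 6.67% of myeloid-like cells (17.1%), at medians of 2712 and 3069 UMIs.

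Cxcr4 and Cx3cr1 were highest in the myeloid-like cells, at 160 CPM (124 to 204) and 129 CPM (96.3 to 168). Among the T cell clusters of more than 100 cells, Cxcr4 was highest in liver precursor-like cells, at 74.2 CPM (65.4 to 83.9), and at 37.6 CPM in IL-17 producer-like, 34.3 CPM in Cd28 Socs2-like and 7.13 CPM in cytotoxic NK-like liver cells. Of thinned liver precursor-like cells, 10.6% had a Cxcr4 UMI (20.2% unthinned) against 1.09% of cytotoxic NK-like cells (1.96% unthinned). Cx3cr1 was at 97.3 CPM (77.4 to 121) in terminal effector-like liver cells and at most 1.75 CPM in the Cd28 Socs2-like, cytotoxic NK-like, IL-17 producer-like and precursor-like liver cells. The thymus held a smaller Cx3cr1 signal in the Igfbp4 Cpa3 cluster, at 34.4 CPM (29.5 to 39.8), which was 4.42-fold (2.94 to 6.90) the level of the Slc35d1 cluster. The thinned share there was 5.39% (11.9% unthinned), and thymic IL-17 producer-like cells had no Cx3cr1 UMI in 164 cells, which by the same limit allows up to 1.83% of cells with a UMI.

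Most cells had a UMI of 1 or none of the 8 genes. At 1500 UMIs, 32.3% of liver cells had none, 44.7% had 1, 19.6% had 2 and 3.35% had 3 or more, with a maximum of 4. In the thymus 28.8% had none, 59.2% had 1, 10.98% had 2 and 1.01% had 3 or more. The commonest sets were Cxcr6 alone (26.9% of liver cells), Cxcr3 with Cxcr6 (10.5% of liver cells), Ccr9 alone (51.8% of thymic cells) and Ccr7 with Ccr9 (5.09% of thymic cells). The IL-17 producer-like cells stood out for joint detection, since 45.7% of the thymic and 37.5% of the liver ones had 2 or more members. The other main groups had 32.03% (Cd28 Socs2-like), 16.0% (Cd200 S1pr1), 15.4% (cytotoxic NK-like), 12.6% (liver precursor-like), 11.9% and 8.70% (Igfbp4 Cpa3 and Slc35d1) and 5.05% (thymic cycling-like). Detection is partial at this depth, so that a cell counted with 1 member may hold transcripts of others.

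**Figure D3:**
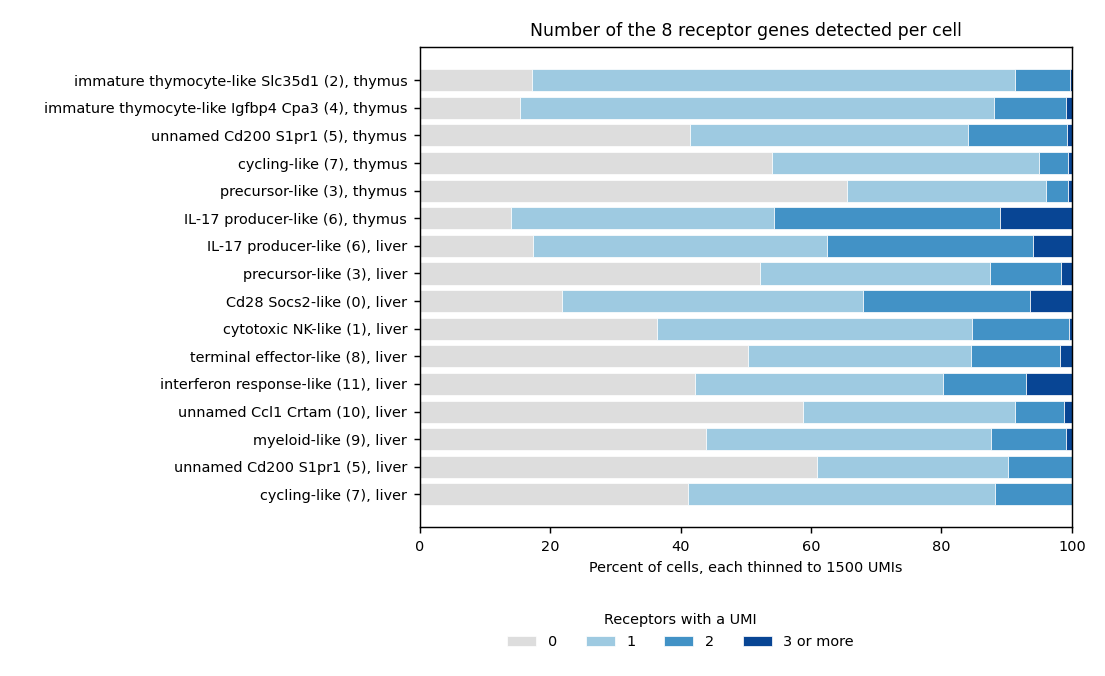
Percent of cells of each cluster with a UMI of 0, 1, 2 or 3 or more of the 8 genes, after thinning to 1500 UMIs. Thymic and liver IL-17 producer-like cells have the largest parts with 2 or more (45.7% and 37.5%), and the immature thymic clusters the largest parts with exactly 1 (74.1% and 72.7%).

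To see which receptors went together, the number of cells with both genes of a pair was set beside the number given by the product of the 2 genes' shares, first over a library and then within each cluster and summed. Over the liver library, 21 of the 28 pairs had a product of at least 5 cells, 7 of which were found in fewer than 0.5 times that many cells and 2 in more than 2 times. The low pairs were Ccr7 with Cxcr6, Cxcr3 or Ccr2, Cx3cr1 with Cxcr6, Cxcr3 or Ccr2, and Ccr6 with Cxcr3. The high pairs were Ccr7 with Ccr9 and Ccr2 with Ccr6. Over the thymus, 12 pairs had such a product, with 2 below (Ccr6 with Ccr9, and Ccr9 with Cxcr3) and 1 above (Ccr2 with Cxcr6). The thymic pair above was the same at 2500 UMIs and with all UMIs, but 3 pairs were below at each. Those were Ccr9 with Cxcr3, Ccr7 with Cxcr6 and Cxcr6 with Cx3cr1 at 2500 UMIs, where Ccr6 with Ccr9 was at 0.536. With all UMIs they were Ccr9 with Cxcr3, Ccr6 with Ccr9 and Ccr7 with Cxcr3. Several liver pairs depended on depth as well. At 2500 UMIs 4 liver pairs were below and 3 above, and with all UMIs 5 and 4. With all UMIs Ccr7 with Cxcr3 was at 0.736 times its product, against 0.486 at 1500 UMIs, Cxcr3 with Cx3cr1 at 0.524 against 0.390, and Ccr2 with Cx3cr1 at 1.13 against 0.397, where 3 cells had both, so that the last pair changed sides.

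With the shares taken within clusters, the numbers lay much closer to their products. There, no pair with a product of at least 5 cells was under 0.5 times it in either library, and 1 was over 2 times, liver Ccr7 with Ccr9. The liver ratios were 0.527 to 2.37 with a median of 0.964 over 23 pairs, and the thymic ones 0.661 to 1.25 with a median of 1.03. At other depths liver pairs crossed these limits: at 2500 UMIs Ccr2 with Ccr7 was at 0.409, with all UMIs Ccr7 with Cx3cr1 was at 0.339, and no pair was over 2 times in either.

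The pairs themselves show this. Ccr7 and Cxcr6 were found together in 30 liver cells, where the library's shares gave 109 and the clusters' shares 41.6. Ccr6 and Cxcr3 were together in 5 liver cells, against 25.6 and 8.47. These receptors of different cell types were rarely in 1 cell, and both numbers were nearer to those given by the clusters' shares. Ccr2 and Cxcr6 were together in 50 thymic cells, against 6.62 and 44.6, and in 492 liver cells, against 390 and 467. Ccr6 and Cxcr6 were together in 19 thymic cells, against 1.26 and 15.2. Cxcr3 and Cxcr6 were together in 1040 liver cells, against 926 and 1007, so that 52.4% of Cxcr3+ cells and 44.8% of the others had Cxcr6. In thymus, Ccr7 and Ccr9 were together in 242 cells, against 247 and 221, and Cx3cr1 and Ccr9 in 83, against 68.5 and 75.9.

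**Figure D4:**
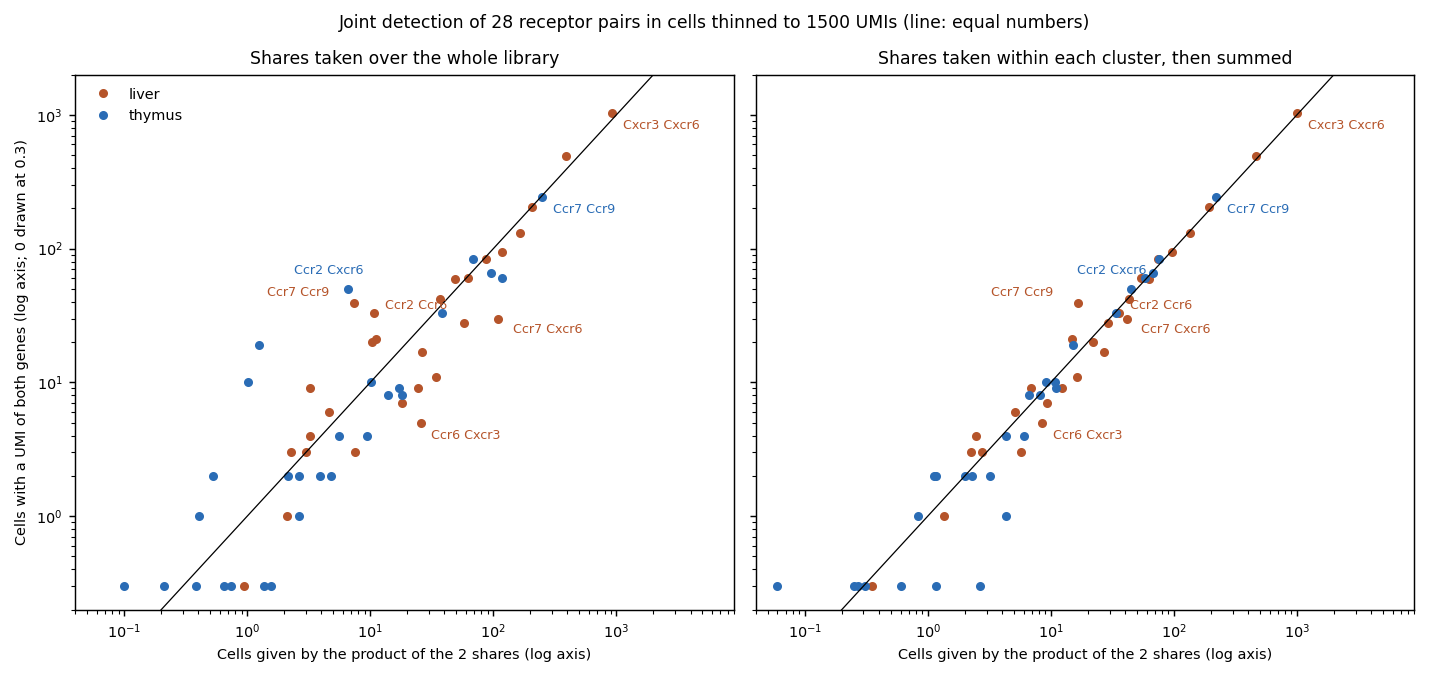
Cells with a UMI of both genes of a pair (log axis) against the number given by the product of their shares (log axis), for 28 pairs in each library, with shares over the library at left and within clusters at right; the line marks equal numbers. Pairs away from the line at left, such as thymic Ccr2 Cxcr6 (50 cells against 6.62), move to it at right (50 against 44.6), and liver Ccr7 Ccr9 stays above it (39 against 16.5).

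The liver pair Ccr7 and Ccr9 was joint beyond its clusters. Of 252 Ccr9+ liver cells, 39 had Ccr7, against 7.31 by the library's shares and 16.5 by the clusters' shares. In the precursor-like cluster, 33 of 77 Ccr9+ cells had Ccr7 (42.9%, 31.6 to 54.6) and 15.7% (13.5 to 18.1) of the others. In contrast, 3 of the 77 had Cxcr3 (3.90%, 0.811 to 10.97), against 12.7% (10.7 to 14.99) of the others. Cxcr3 and Cxcr6 were together in 24 cells of this cluster, against a product of 15.2, and Ccr7 and Cxcr3 in 22, against 22.6. The ratio to the library's product for Ccr7 with Ccr9, 5.34, was 3.22 in cells thinned to 2500 UMIs and 3.81 with no thinning, and within clusters 2.37, 1.84 and 1.74.

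Smaller clusters had pairs of their own. In terminal effector-like cells, Cxcr3 and Cxcr6 were together in 21 of 278 cells, against a product of 11.1, while Cx3cr1 and Cxcr6 were together in 4, against 9.84. Of the Cx3cr1+ cells there, 10.5% (2.94 to 24.8) had Cxcr6 and 28.3% (22.7 to 34.5) of the Cx3cr1- cells did. In liver IL-17 producer-like cells, Ccr6 and Cxcr3 were together in 3 of 792 cells, against 7.83. Ccr2 with Cxcr6 (178 against 173) and Ccr2 with Ccr6 (33 against 35.6) were at their products there. So was Ccr6 with Cxcr6 (58 against 61.4). In this cluster, hence, each pair of Ccr2, Ccr6 and Cxcr6 was found in 1 cell about as often as its shares give. Cells with all 3 of these genes are not given here.

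Liver precursor-like cells with and without Ccr7 differed in the genes that name the cluster. The split compared 187 cells with a Ccr7 UMI at 1500 UMIs with 871 without one, medians of 2836 and 3018 UMIs, with levels from the thinned cells. Among the precursor markers, Dapl1 was higher in Ccr7+ cells by 1.09 on the log2 scale (0.56 to 1.60), Nsg2 by 1.07, Lef1 by 0.82 and Tcf7, the T cell factor of naive cells, by 0.70. Ly6c2 was lower, at 766 against 1191 CPM (-0.64, -0.85 to -0.43). Klf2, a factor that drives S1pr1, was at 3847 against 2694 CPM (0.51, 0.41 to 0.61), and Sox4 at 196 against 79.6 CPM (1.30). Of 10 measured egress and adhesion genes, 4 were above 0 and 6 below, none past 2-fold.

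All 6 type 1 effector markers and 4 of 5 measured cytotoxic NK markers were below 0 in the split by Ccr7, 3 and 2 of them past 2-fold, with medians of -1.03 and -0.95 where the 41 list genes measured had -0.20. Gzmb, the gene of granzyme B, was at 381 against 375 CPM (0.02, -0.29 to 0.33), and Tbx21 had a ratio of -0.18 (-1.26 to 0.77). Xcl1 was at 250 CPM in Ccr7+ and 736 CPM in Ccr7- cells (-1.56, -1.93 to -1.21), Klrb1c, the gene of NK1.1, at 53.5 and 153 CPM (-1.52) and Ifng at 246 and 537 CPM (-1.13). In the split by Cxcr3 (128 cells with, 930 without), 5 of the 6 type 1 effector and 4 of the 5 cytotoxic NK markers were above 0, 0 and 1 past 2-fold, with medians of 0.42 and 0.68 against 0.09 over the 41 genes. Only list genes were measured in both splits, so the counts past 2-fold have no share over all genes beside them. Ncr1 was at 104 CPM in Cxcr3+ and 34.4 CPM in Cxcr3- cells (1.60, 0.77 to 2.38), Ly6c2 at 1693 and 1037 CPM (0.71) and Klrb1c at 224 and 123 CPM (0.86). Tcf7 was at 141 and 295 CPM (-1.07, -1.69 to -0.50) and Lef1 at 151 and 239 CPM (-0.66). Of the markers of αβ lineage cells, Cd8b1 was at 157 CPM in Ccr7+ and 30.6 CPM in Ccr7- cells (2.36, 1.71 to 3.01). It was found in 27 of 187 Ccr7+ cells (14.4%) and 26 of 871 Ccr7- cells (2.99%), and in 14 of 77 Ccr9+ cells (18.2%). Cd8a was in 7 (3.74%) and 41 (4.71%) of the Ccr7+ and Ccr7- cells, and Cd4 and Rag1 in 0 of both. Genes of the T cell receptor were not analysed here, and the part of such cells in the result was not tested.

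**Figure D5:**
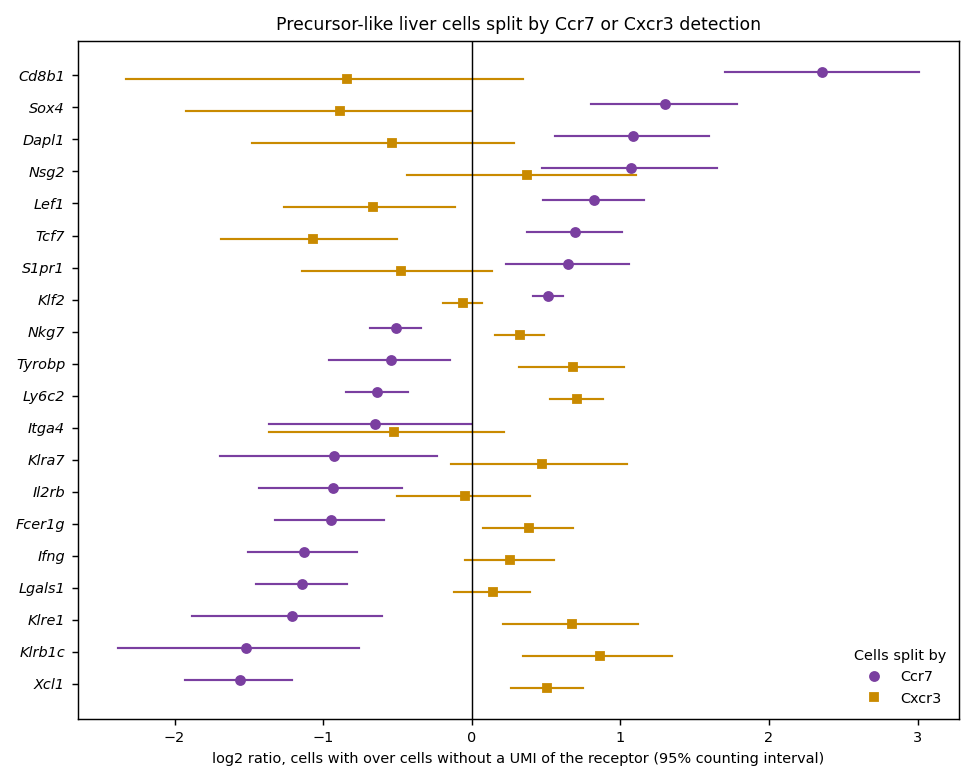
Log2 ratio of gene levels in liver precursor-like cells with a Ccr7 UMI over those without (187 and 871 cells) and with a Cxcr3 UMI over those without (128 and 930 cells), with 95% counting intervals as bars, for the marker and egress genes shown here, whose Ccr7 interval leaves out 0. Tcf7, Lef1 and Sox4 lie above 0 for Ccr7 and below 0 for Cxcr3, and Klrb1c, Xcl1 and Klre1 the reverse.

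Other clusters were also divided along a receptor. In the thymic Cd200 S1pr1 cluster, the 468 Ccr9+ cells had more Sox13, an early γδ lineage factor, than the 532 Ccr9- cells (61.3 against 18.8 CPM, log2 ratio 1.70, 0.83 to 2.66) and more Cpa3 (55.6 against 25.1 CPM, 1.15), and less Cd200 (48.4 against 143 CPM, -1.56) and Il2rb (45.6 against 119 CPM, -1.38). S1pr1, the receptor for thymic exit, was at 447 and 336 CPM (0.41, 0.17 to 0.65), and with Ccr7 at 471 against 364 CPM (0.37, 0.10 to 0.64). Over the lists, 2 of 4 measured early immature markers and 3 of 4 primed immature markers were above 0, 1 of each past 2-fold. Here too only list genes were measured, without a share over all genes. The cells with 701 and 125 CPM of Ccr9 that the thymus-alone clustering set apart are both in this cluster, and their part in the split was not tested. In Cd28 Socs2-like liver cells, the 469 with Ccr2 had less Cd8a (28.4 against 122 CPM, -2.10, -2.83 to -1.46) and Tyrobp (213 against 434 CPM, -1.03) than the 2388 without, and more Socs2 (428 against 277 CPM, 0.63), Icos (168 against 103 CPM, 0.70) and Cd40lg (172 against 107 CPM, 0.68). When the liver was clustered alone, 98.5% of a like-named cluster of 1914 cells and 63.8% of an unnamed cluster of 1453 cells came from these cells. Those clusters had 180 and 31.1 CPM of Ccr2, and their part in the split was not tested. In liver IL-17 producer-like cells, Il17a was at 1960 CPM with Ccr2 and 1556 CPM without (0.33, 0.20 to 0.46) and Il17f at 121 and 196 CPM (-0.70, -1.19 to -0.23), and by Ccr6 at 1580 and 1717 CPM for Il17a (-0.12, -0.32 to 0.08).

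The genes whose levels were most like each member's were found over the 14 groups of cluster and library with at least 50 cells, from 8550 genes, by Pearson's r of log2(CPM + 10). These groups share 2 libraries and are not replicates. Ccr9 was most like R3hdm1 (0.97), 1190002N15Rik and Bend5, and Ccr7 most like Ift80 (0.86), Rab3ip and Slamf6. Cxcr3 went with Ppm1j (0.99), Ifng (0.98), the gene of interferon-γ, and Hopx, and Cxcr6 with F2r (0.97), Adgrg5 and Aldoa. Ccr6 was most like Pde5a (0.99), Aqp3 and Serpinb1a, Ccr2 most like Tmem176a (0.94), Rnase4 and Tmem176b, Cxcr4 most like Sgk1 (0.87), Nfkbiz and Ier3, and Cx3cr1 most like Zeb2 (0.90), Snx10 and Dhrs1. Among the members, r was 0.77 for Ccr2 with Ccr6 and for Cxcr3 with Cxcr6, -0.81 for Ccr9 with Cxcr3 and -0.75 for Ccr9 with Cxcr6.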

How the data were processed

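The authors sequenced 1 liver and 1 thymus library made with the Chromium single-cell 3′ v2 kit; the submitters' processing notes name Cell Ranger (version not given), Seurat 3.0 and the mm10 build, and the annotation release is not given in the sources used here. The deposited matrices hold raw UMI counts per gene and filtered barcode, 25040963 UMIs in 8658 liver barcodes and 17371662 in 4541 thymus barcodes; the thymus matrix ended in 2 stray lines without an entry. Cells with 800 to 4000 genes and at most 6% mitochondrial UMIs were kept, after the study's methods. The study's further limit of 50% ribosomal UMIs was used only as an alternative and would remove 6 liver cells. The study analysed fewer cells of each organ than the 8075 liver and 4351 thymus cells kept here. The reason for this gap is not given in the sources used here, so the cells are not the study's own set.

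Cells of both libraries were clustered in Seurat 5.3.0 (R 4.3.3) with 2000 variable genes less those of chemokine receptors, 30 principal components and resolution 0.6, and clusters were named from marker lists. Scrublet (scanpy 1.11.5) called 4 and 1 doublets, so it had not worked, doublets were kept, and the alternative removed the 600 and 165 cells with the highest scores. Levels are UMIs summed over a cluster's cells per 1000000 UMIs, with exact Poisson intervals, and ratios have exact conditional binomial intervals, at 95%. Shares of cells have exact Clopper-Pearson intervals after each cell was thinned to 1500 UMIs, which left out 5 liver and 7 thymus cells. The limit for a count of 0 is 3 counts. Intervals and limits cover counting error only. A gene is called past 2-fold among genes with at least 50 UMIs. With 1 library per tissue no test across genes was made. The intervals of ratios and levels were tested on simulated counts with known ratios and a known mean. Shares of cells and joint detection were not simulated.

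Named genes are the 8 members, the 3 genes most like each, at most 5 genes past 2-fold of each list of related genes, and the markers that name clusters; some genes of these lists are not reported here. Members and lists were chosen with earlier results of these data known. Alternatives were the cell filters, doublet removal, clustering settings, each library alone, thinning and scaling, and, chosen after seeing the data, leaving out myeloid-like cells and the ribosomal limit. Promoters are from RefSeq (GRCm38.p6), and gene positions from GENCODE M21.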

Additional observations from a re-analysis of the deposited data

Results flagged for a closer look

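For 3 receptors the liver and thymus libraries differed in opposite directions within the 2 clusters that both held. Ccr9 had a log2 ratio of liver over thymus of 0.49 in the precursor-like cluster and -2.94 in IL-17 producer-like cells. Ccr2 had 0.16 and -0.39, and Cxcr6 0.035 and -0.18. The precursor-like intervals of all 3 include 0, and these differences between the clusters were not tested, since each cluster had 1 library per tissue.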

How the results depend on the processing

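No paired analysis was possible because each tissue had 1 library. No log2 ratio of liver over thymus turned. Of 64 log2 ratios of liver over thymus under alternatives, 54 moved by less than their interval. With the mean of cells' own CPM, Ccr2 was 1.64, Ccr6 0.72 and Cxcr6 3.39, and with thinned cells Ccr2 was 1.59 and Cxcr6 3.41. Scaled without mitochondrial and ribosomal genes, Ccr7 was -1.29, Ccr9 -5.16 and Cxcr6 3.52. Ccr7 was -0.94 with at least 500 genes, and Cx3cr1 -1.73 without myeloid-like cells. Of 96 levels, each member in 1 T cell cluster where it was high, 84 moved by less than their interval. The scaling without those genes, which has a smaller total, gave 632 CPM for Ccr2, 203 for Ccr6, 299.6 for Ccr7, 1906 for Ccr9, 384 for Cxcr3, 120 for Cxcr4, 1323 for Cxcr6 and 130 for Cx3cr1. With each library clustered alone, Ccr7 was 179, Cxcr3 263 and Cxcr6 813 CPM, and at resolution 0.4 Ccr9 was 1200 CPM. Of 36 pair ratios, 32 did not move beyond theirs. Liver Ccr7 with Ccr9 was 3.81 without thinning and 3.22 at 2500 UMIs, and Ccr7 with Cxcr6 0.437 and 0.411. Without thinning 2 pairs printed here changed sides of 1, thymic Ccr7 with Ccr9, at 1.03 within its interval, and liver Ccr2 with Cx3cr1, which was not among the 36, at 1.13. The cause of these changes was not tested. Depth limits single cells: a cell without a UMI may express the gene.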

Other observations

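Genes of related function were counted from lists. Of 16 other chemokine and atypical receptors, 5 had at least 50 UMIs over both libraries. Ccrl2 was at 71.9 CPM in liver and 9.90 CPM in thymus (log2 ratio 2.86), highest in myeloid-like cells. Ccr8 was at 0.538 and 18.2 CPM (-5.08, -6.00 to -4.28), highest in the thymic cells of the precursor-like cluster, at 61.2 CPM, and Ccr4 at 3.06 and 22.8 CPM (-2.90, -3.28 to -2.53). Of 13 ligand genes found, 5 reached the minimum. Of these 5, 4 were past 2-fold higher in liver and 1 lower, where 12.1% and 16.9% of all genes tested were. The 4 were Ccl2, Ccl7, Cxcl10 and Cxcl16, all highest in the myeloid-like cells. Cxcl10, a ligand of Cxcr3, was at 575 CPM there. Ccl25, the ligand of Ccr9, was lower in the liver library, at 5.13 against 16.4 CPM (-1.68, -1.99 to -1.37). These ligand levels are those of the sorted cells and not of the organs.

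Of 19 genes of receptor signalling, 4 were past 2-fold higher in liver and 0 lower, where 12.1% and 16.9% of all genes tested were. Rgs1, a G protein regulator that limits chemokine signalling, was at 4212 CPM in liver and 166 CPM in thymus (4.66, 4.61 to 4.72), highest in cytotoxic NK-like cells, at 8344 CPM. Among egress and adhesion genes, Itga1, the collagen-binding integrin of resident lymphocytes, was at 31.0 and 0.410 CPM (6.24, 5.19 to 7.56). S1pr5, a receptor for exit of NK cells, had 173 UMIs in liver and 0 in thymus, at least 40.7-fold higher against a limit of 3 counts for the library. S1pr1 was at 36.8 and 143 CPM (-1.96) and Itgae, the αE integrin, at 12.8 and 47.1 CPM (-1.88).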
